A study of Rattus norvegicus with 6 samples.

Results

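The mature microRNAs miR-103-3p and miR-107-3p (rno-miR-103-3p and rno-miR-107-3p in the deposited tables) were examined in the rat trigeminal ganglion, where the neurons that carry touch and pain from the face have their cell bodies. Their rows were chosen by name, as every entry whose name has the stem miR-103 or miR-107 with any arm suffix, which gave 3 of the 650 miRNAs in the deposited count table: miR-103-3p, miR-107-3p and miR-103-1-5p. Ganglia came from Sprague-Dawley rats aged 8 to 10 weeks and were taken from the operated side 14 days after surgery. In the CCI-ION group (3 libraries) the infraorbital nerve carried 2 loose silk ligatures, a chronic constriction injury used as a model of trigeminal neuropathic pain. In the sham group (3 libraries) the nerve was exposed and not ligated. Whether each library is 1 animal is not said in the labels, so the spread that p-values measure may be partly technical.

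A miRNA is loaded into an Argonaute protein and represses mRNAs that pair with its seed, the bases near its 5′ end. miR-103 and miR-107 are made from hairpins inside genes of the pantothenate kinase family (Pank), which act in coenzyme A synthesis, and they are known to repress Dicer, the enzyme that cuts miRNAs from their hairpins, and caveolin in insulin signalling (human and mouse work). In the rat spinal cord, miR-103 is known from pain research as a repressor of subunits of an L-type calcium channel of dorsal horn neurons. miR-103 is also often used as a reference RNA in quantitative PCR.

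The mature sequences are shown first because the pair can be told apart at a single base. In the lines below, as DNA letters in the deposited table, capitals mark the seed (bases 2 to 8 from the 5′ end) and, in the first pair of lines, also the base that differs.
miR-103-3p: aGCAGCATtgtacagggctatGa
miR-107-3p: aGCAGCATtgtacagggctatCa
miR-16-5p: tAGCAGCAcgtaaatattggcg
miR-195-5p: tAGCAGCAcagaaatattggc
miR-503-5p: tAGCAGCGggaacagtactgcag
Both members are 23 bases long and have 1 mismatch, G22C (miR-103-3p base, position from the 5′ end, miR-107-3p base). Their first 21 bases are the same, so a read that ends before position 22 matches both equally. The sources used here do not give how the authors placed such reads, and both counts are uncertain for that reason. No other row of the table came within 2 mismatches of either sequence over at least 19 bases. The seed GCAGCAT occurred in 2 of the 650 rows, the pair itself. The 7 bases AGCAGCA, with which the pair begins, lay within the first 9 bases of 8 rows (1.23%): these were the pair and miR-15a-5p, miR-15b-5p, miR-16-5p, miR-195-5p, miR-322-5p and miR-497-5p, where they fill the seed, 1 base further in.

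The hairpins were taken from RefSeq (build GRCr8) to show where the pair is encoded; capitals mark stretches identical to a row of the count table.
Mir107: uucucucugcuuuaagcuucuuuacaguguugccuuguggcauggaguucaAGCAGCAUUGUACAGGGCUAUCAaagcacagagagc
Mir103a2: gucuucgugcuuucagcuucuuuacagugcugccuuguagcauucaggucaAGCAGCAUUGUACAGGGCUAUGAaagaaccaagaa
Mir103a1: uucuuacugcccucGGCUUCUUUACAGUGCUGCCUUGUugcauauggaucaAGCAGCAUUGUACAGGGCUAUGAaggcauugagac
Mir107 lies at chr1:241750418-241750504 on the minus strand within Pank1, Mir103a2 at chr3:138963227-138963312 on the plus strand within Pank2, and Mir103a1 at chr10:20748474-20748559 on the plus strand within Pank3. Each has the same strand as the gene around it. The mature 3p sequence takes bases 52 to 74 of each hairpin, and miR-103-3p is identical in Mir103a1 and Mir103a2, so its counts cannot be divided between these genes. The earlier capitals in Mir103a1 are miR-103-1-5p, the partner strand.

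Total miRNA counts ranged from 6420434 to 11014970 in CCI-ION libraries and from 10084327 to 12560545 in sham libraries. The miR-183, miR-96 and miR-182 cluster that marks sensory neurons summed to 34692 to 45625 counts per 1000000 (CPM) in CCI-ION and 35126 to 44685 CPM in sham. CPM here are relative to the miRNA counts of a library after TMM scaling, which aligns the bulk of miRNAs between libraries. Libraries with the same number deviated together, so both groups' numbers 1 to 3 were treated as pairing them, and a fit with the number as a block is given where it bears on a result. In edgeR this fit leaves 2 residual degrees of freedom per miRNA, beside a median of 54.5 borrowed from the other miRNAs. Its p-values therefore rest mainly on spread shared across miRNAs, and small ones are to be read with that limit.

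The level of miR-103-3p in CCI-ION was close to that in sham, within narrow limits. It held 3420, 3214 and 3260 CPM in CCI-ION libraries 1 to 3 and 3225, 3254 and 3356 CPM in sham libraries 1 to 3. The groups overlapped, and the highest of the 6 libraries was 1.06 times the lowest. The group means were 3298 ± 108 CPM in CCI-ION and 3279 ± 68.8 CPM in sham (SD, n = 3 each). The log2 fold change was 0.0084 ± 0.11 (SE, edgeR adjusted p = 0.993), with a 95% interval of -0.25 to 0.27, or 0.839 to 1.21 times the sham level. With the replicate block it was 0.0081 ± 0.097 (edgeR adjusted p = 0.978). By group alone, its value was the median log2 fold change of all 463 tested miRNAs, so miR-103-3p stood in the middle of the profile. Within same-numbered libraries, the CCI-ION to sham ratio of miR-103-3p was 1.06, 0.988 and 0.971 for numbers 1 to 3.

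miR-107-3p, which has the same seed, was much less abundant and varied far more between libraries of the same group.
It held 158, 355 and 252 CPM in CCI-ION libraries 1 to 3 and 258, 365 and 202 CPM in sham libraries 1 to 3. The groups overlapped, and the libraries numbered 2 were the highest of each group. The means were 255 ± 98.8 CPM in CCI-ION and 275 ± 83.0 CPM in sham (SD, n = 3 each). The log2 fold change was -0.11 ± 0.33 (SE, edgeR adjusted p = 0.969), with a 95% interval of -0.89 to 0.67, which allows anything from 0.540 to 1.59 times the sham level. With the replicate block it was -0.14 ± 0.20 (edgeR adjusted p = 0.739, 95% interval -0.62 to 0.34). The direction depended on single libraries: it was 0.14 without CCI-ION library 1 and 0.15 without sham library 2. Within same-numbered libraries the CCI-ION to sham ratio was 0.611, 0.973 and 1.25 for numbers 1 to 3, so the pairs did not move alike.

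Neither member was called, where edgeR called 3 of 463 tested miRNAs (0.648%) by group alone and 54 (11.7%) with the replicate block at an adjusted p under 0.05. Among tested miRNAs 46 (9.94%) had an unadjusted p under 0.05, and neither member was among them by edgeR. DESeq2 called 13 miRNAs (2.81%), again without the pair.

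**Figure D1:**
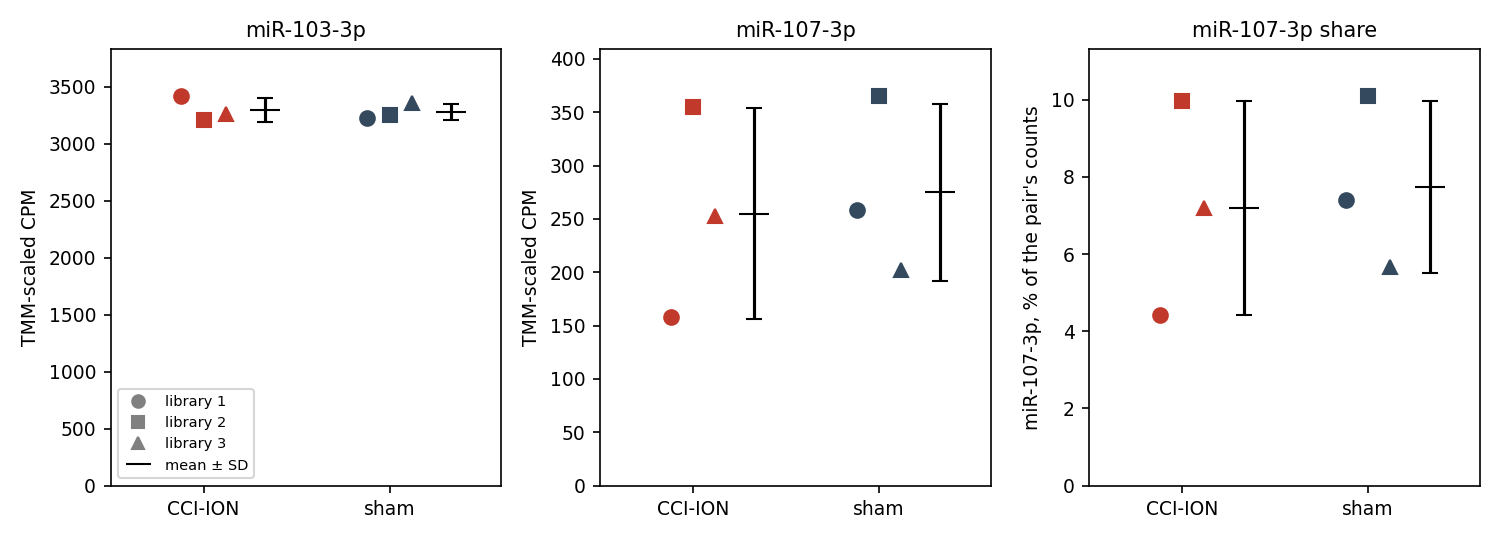
Level of miR-103-3p and miR-107-3p (TMM-scaled CPM) and the share of the pair's counts held by miR-107-3p (percent) in each library. Symbols give the library number, bars the mean ± SD of 3 libraries. miR-103-3p lies between 3214 and 3420 CPM in all 6 libraries, while miR-107-3p runs from 158 to 365 CPM and both groups cover much of that range.

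The spread of miR-103-3p was the smallest of all tested miRNAs. As a measure, the root mean square (RMS) deviation of log2 CPM from its mean over the 6 libraries was taken for each miRNA. This measure was chosen after the levels had been seen. It was 0.032 for miR-103-3p, rank 1 of 463 from the flattest, against a median of 0.27 over all tested miRNAs. The next flattest were miR-24-2-5p (0.033) and miR-361-5p (0.038). miR-107-3p had an RMS deviation of 0.43 and rank 373.

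The pair was also set beside miRNAs of like level. For miR-103-3p these were the 25 next above and the 25 next below in mean level, from 1031 to 12681 CPM. Their RMS deviation ranged from 0.049 to 0.59, with a median of 0.20. None of them could be flatter, since miR-103-3p had rank 1 among all tested miRNAs. Among the 50 around miR-107-3p, from 145 to 460 CPM, 43 were flatter and 7 more variable. Counting error was small in both: at the lowest count of any library it was 0.707% of the value for miR-103-3p and 2.34% for miR-107-3p, where the SD over the 6 libraries was 2.49% and 31.1% of the mean. The rank of miR-103-3p rested on the scaling. It was rank 1 with DESeq2 size factors, rank 9 with plain miRNA totals (RMS 0.076), rank 51 with upper quartile factors (0.14) and rank 57 on the totals behind the RPM (0.21).

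**Figure D2:**
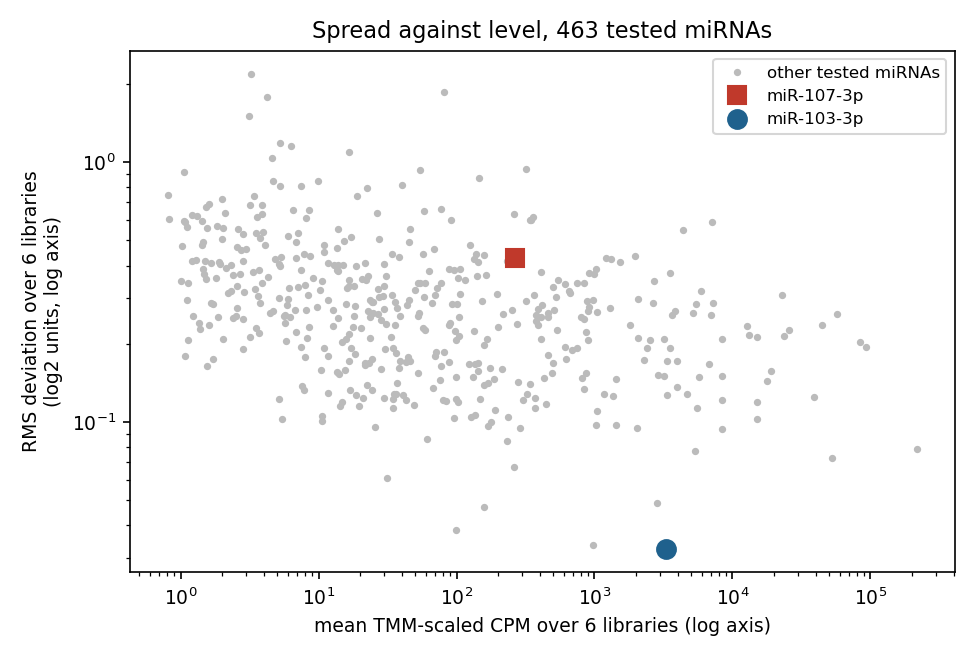
Spread of each of 463 tested miRNAs over the 6 libraries (RMS deviation of log2 CPM, log axis) against its mean TMM-scaled CPM (log axis). miR-103-3p is the lowest point, at 0.032, and miR-107-3p lies high for its level, at 0.43.

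Under TMM scaling, the summed level of the pair varied little, and the libraries with the most miR-103-3p had the least miR-107-3p. The summed level was 3578, 3569 and 3512 CPM in CCI-ION libraries 1 to 3 and 3484, 3620 and 3558 CPM in sham libraries 1 to 3. The means of the sum were 3553 ± 35.6 CPM in CCI-ION and 3554 ± 68.1 CPM in sham (SD, n = 3 each). Over the 6 libraries the sum had an SD of 48.6 CPM, below that of miR-103-3p (81.8 CPM) and of miR-107-3p (82.3 CPM) alone. CCI-ION library 1 had the highest miR-103-3p and the lowest miR-107-3p, and sham library 3 came next in both orders. CCI-ION library 2 had the lowest miR-103-3p and the second highest miR-107-3p. The orders were not fully opposed. Sham library 2 was 1st in miR-107-3p but 4th in miR-103-3p, and sham library 1 was 3rd in miR-107-3p and 5th in miR-103-3p. In deposited RPM the small variation of the sum did not hold, and the opposed extremes held only in part. The sum was 1711, 1584 and 1893 RPM in CCI-ION libraries 1 to 3 and 1930, 2335 and 2341 RPM in sham libraries 1 to 3, lower in all CCI-ION libraries. On that scale sham library 3 was 1st in miR-103-3p and 5th in miR-107-3p, and CCI-ION library 2 was 6th and 2nd, which is still opposed. Sham library 2, however, had the highest miR-107-3p with the second highest miR-103-3p, at 236 and 2100 RPM. CCI-ION library 1 was 5th in miR-103-3p and 6th in miR-107-3p, so low in both. When both were summed to 1 row before fitting, the log2 fold change was 0.017 ± 0.11 (edgeR adjusted p = 0.994) and the RMS deviation under TMM scaling was 0.016, again rank 1.

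**Figure D3:**
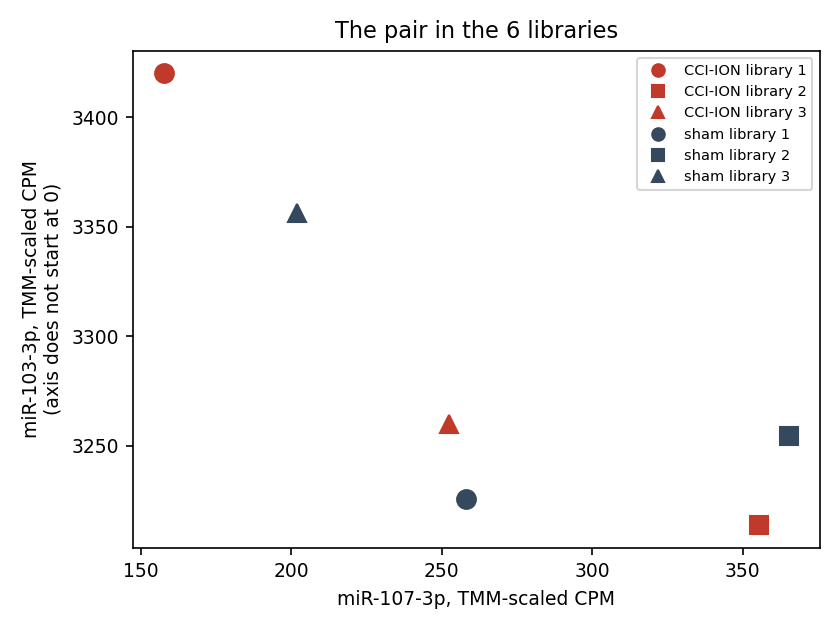
miR-103-3p against miR-107-3p in the 6 libraries (TMM-scaled CPM; the vertical axis does not start at 0). Colour gives the group and symbol the library number; CCI-ION library 1 and sham library 3 have the least miR-107-3p, at 158 and 202 CPM, and the most miR-103-3p, at 3420 and 3356 CPM.

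The division of the pair's counts, which no scaling changes, differed between libraries. miR-107-3p held 4.41% of them in CCI-ION library 1 (exact binomial 95% interval 4.21% to 4.61%, 1830 of 41503 counts). In CCI-ION library 2 the share was 9.96% (9.56% to 10.4%), and in CCI-ION library 3 it was 7.19% (6.87% to 7.51%). In sham libraries 1 to 3 it was 7.41% (7.17% to 7.65%), 10.1% (9.78% to 10.4%) and 5.68% (5.44% to 5.92%). These intervals cover counting error only. Libraries numbered 2 had overlapping intervals, at the top of each group, while those numbered 1 and those numbered 3 differed. The mean share was 7.18% ± 2.77 in CCI-ION and 7.73% ± 2.22 in sham (SD, n = 3 each), a difference of -0.543 percentage points that is smaller than the spread within either group.

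The partner strand miR-103-1-5p was almost absent. It had 1, 0 and 0 counts in CCI-ION libraries 1 to 3 and 1, 4 and 0 counts in sham libraries 1 to 3, 6 in all against 192236 counts of miR-103-3p. A count of 0 allows up to 3 counts, so a difference between groups was not detectable at this depth, and the row did not pass the filter on low counts. As a share of the summed counts of both rows, miR-103-1-5p held 0.00312% beside miR-103-3p. It matches only Mir103a1, while miR-103-3p matches both Mir103a1 and Mir103a2, so this share does not describe 1 hairpin. The partner row held 0.0223% for miR-16-5p and 0.0565% for miR-497-5p, whose partners were also scarce. For miR-195-5p, by contrast, the partner held 30.1%.

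On the deposited RPM scale, the pair's values in CCI-ION were lower, as were those of most miRNAs. RPM values are relative to a larger total of reads, of which miRNA counts made up 49.0% ± 5.87 in CCI-ION and 61.8% ± 8.25 in sham (SD, n = 3 each). miR-103-3p had 1635, 1426 and 1757 RPM in CCI-ION libraries 1 to 3 and 1787, 2100 and 2208 RPM in sham libraries 1 to 3. The groups did not overlap, in a setting where 136 of 463 tested miRNAs (29.4%) had CCI-ION values wholly below those of sham. The mean was 1606 ± 167 RPM in CCI-ION and 2032 ± 218 RPM in sham (exact permutation test, two-sided, p = 0.1, the smallest that 3 against 3 libraries can give). The ratio of means was 0.791, and the median ratio over all tested miRNAs was 0.790, so miR-103-3p had no shift of its own on this scale.

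miR-107-3p had 75.4, 158 and 136 RPM in CCI-ION libraries 1 to 3 and 143, 236 and 133 RPM in sham libraries 1 to 3. These groups overlapped, with a mean of 123 ± 42.6 RPM in CCI-ION and 171 ± 56.6 RPM in sham (two-sided exact permutation p = 0.5, n = 3 each). With counts scaled to those larger totals and with the replicate block, the log2 fold change of miR-107-3p was -0.49 ± 0.17 (edgeR adjusted p = 0.0242), one of 152 lower calls (32.8% of 463) in a fit whose median over all miRNAs was -0.35. In that fit miR-103-3p was at -0.34 ± 0.16 and was not called (edgeR adjusted p = 0.0834). Relative to the median shift, miR-107-3p was thus lower by about as much as it was under TMM scaling.

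**Figure D4:**
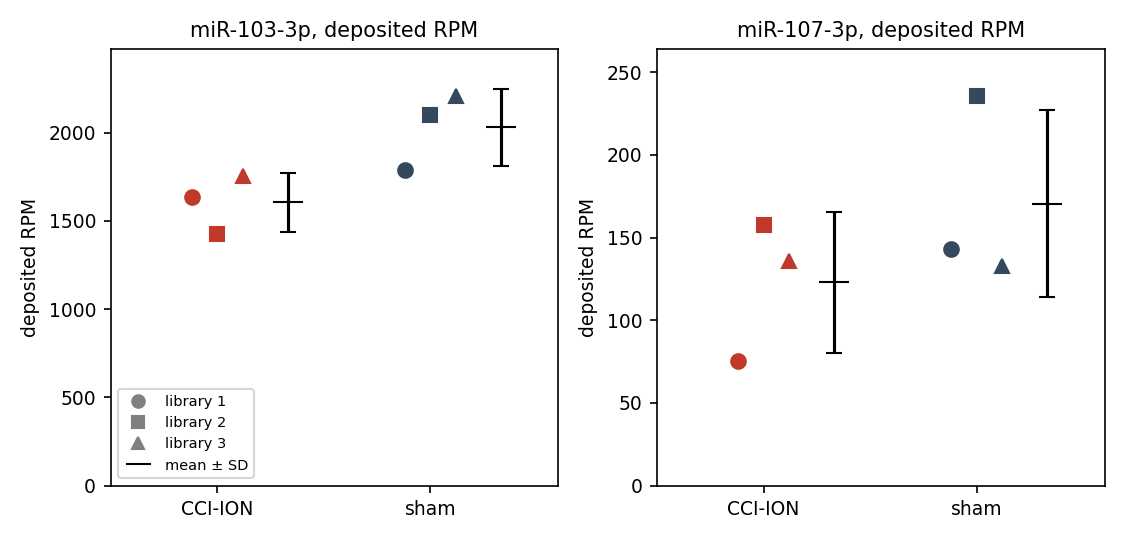
Deposited RPM of miR-103-3p and miR-107-3p in each library, with the mean ± SD of 3 libraries. The miR-103-3p values are 1426 to 1757 RPM in CCI-ION and 1787 to 2208 RPM in sham, while those of miR-107-3p overlap.

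In order of level, miR-103-3p was the 42nd and miR-107-3p the 126th most abundant of 650 miRNAs over the 6 libraries. Next above miR-103-3p stood miR-23b-3p, at 3193 ± 465 CPM in CCI-ION and 3472 ± 400 CPM in sham, and next below let-7e-5p, at 3244 ± 492 CPM in CCI-ION and 3149 ± 332 CPM in sham (SD, n = 3 each). These neighbours were chosen as adjacent in mean level, so their closeness to miR-103-3p follows from the choice. Next above miR-107-3p stood miR-1843b-5p, at 244 ± 27.2 CPM in CCI-ION and 304 ± 54.4 CPM in sham. Next below stood miR-7b, at 180 ± 69.7 CPM in CCI-ION and 341 ± 89.6 CPM in sham. Both were chosen in the same way and lay within the spread of miR-107-3p. The replicate block called miR-7b lower in CCI-ION (log2 fold change -0.96 ± 0.12; by edgeR, adjusted p = 1.6e-08 in this fit and 0.432 by group alone), though not when the libraries numbered 3 were left out (edgeR adjusted p = 0.0528). It is uncertain, since it differs by 1 base from miR-7a-5p. Whether miR-1843b-5p was called with the block depended on the tool. It was not called by edgeR (adjusted p = 0.0569) or DESeq2 (adjusted p = 0.0927), but was called lower by limma-voom (adjusted p = 0.0489). With the block on the totals behind the RPM it was also called lower (edgeR adjusted p = 0.00246).

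The profiles most like that of miR-103-3p, by the RMS difference of centred log2 CPM over 6 libraries, were those of miR-28-3p (0.058), miR-24-2-5p (0.060) and miR-361-5p (0.064). All of these were flat, as profiles close to a flat one must be by this measure: miR-28-3p, for example, averaged 161 ± 5.81 CPM in CCI-ION and 155 ± 4.38 CPM in sham. Nearest to miR-107-3p were miR-450a-3p (0.15), miR-30b-5p (0.18) and miR-30d-3p (0.18). miR-30b-5p, reported in rat pain work as a repressor of a sodium channel gene, averaged 650 ± 209 CPM in CCI-ION and 660 ± 90.4 CPM in sham. The pair's own profiles differed by 0.45, which placed miR-103-3p only 184th in likeness to miR-107-3p. Since miR-103-3p was nearly constant, this difference is close to the RMS deviation of miR-107-3p itself (0.43) and adds little to it.

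The seed group of miR-15 and miR-107, whose members share most of the seed and are known for repressing cell cycle genes, was next compared. All 9 members found in the table were tested; miR-503-5p, whose seed ends in another base, is counted by name. By group alone 0 were called by edgeR, DESeq2 or limma-voom, and 1 had an unadjusted p under 0.05 in each. With the replicate block 0 were called by these tools too. Of the 9, 8 had a positive log2 fold change and miR-107-3p alone a negative one, with a median of 0.15, where 226 of 463 tested miRNAs were negative and the median was 0.0084. Leaving out CCI-ION library 2 took the group's median to 0.039, and leaving out sham library 1 took it to 0.0029. On the totals behind the RPM the group's median was -0.20, against -0.34 over all tested miRNAs.

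miR-103-3p was the most abundant of the group, with 67.5%, 60.1% and 64.0% of its summed CPM in CCI-ION libraries 1 to 3 and 66.6%, 62.0% and 64.8% in sham libraries 1 to 3. miR-16-5p, a repressor of cyclins, followed with 1199 ± 116 CPM in CCI-ION and 1155 ± 129 CPM in sham (SD, n = 3 each; log2 fold change 0.054 ± 0.15, edgeR adjusted p = 0.947). miR-195-5p had 235 ± 15.1 CPM in CCI-ION and 226 ± 15.7 CPM in sham, which put it close to miR-107-3p in level; it differs from miR-16-5p by 2 bases, so both are uncertain. The summed group stood at 5169 ± 154 CPM in CCI-ION and 5090 ± 217 CPM in sham.

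The group's remaining members were less abundant.
miR-503-5p had 42.2, 38.6 and 36.2 CPM in CCI-ION libraries 1 to 3 and 28.8, 31.6 and 30.8 CPM in sham libraries 1 to 3. Its groups did not overlap, as for 31 of 463 tested miRNAs (6.7%) that were higher in CCI-ION, and it was not called (log2 fold change 0.36 ± 0.14, edgeR adjusted p = 0.482, and 0.106 with the replicate block). miR-497-5p had 64.5, 67.2 and 61.7 CPM in CCI-ION libraries 1 to 3 and 56.3, 59.2 and 58.5 CPM in sham libraries 1 to 3, again with no overlap and no call (0.15 ± 0.13, edgeR adjusted p = 0.892). miR-322-5p averaged 41.0 ± 16.1 CPM in CCI-ION and 35.3 ± 11.0 CPM in sham, miR-15b-5p 35.7 ± 6.59 CPM in CCI-ION and 31.0 ± 4.34 CPM in sham, and miR-15a-5p 1.63 ± 0.690 CPM in CCI-ION and 0.986 ± 0.650 CPM in sham. miR-15a-5p differs from miR-15b-5p by 1 base over the 19 compared, so both are uncertain.

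**Figure D5:**
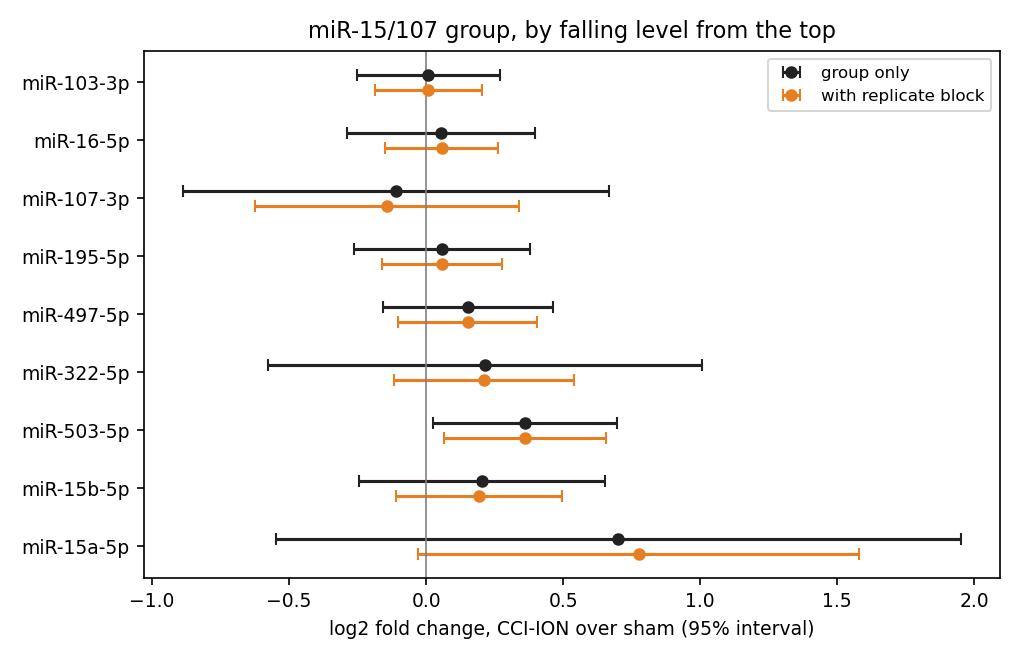
Log2 fold change, CCI-ION over sham, with its unadjusted 95% interval for the 9 members of the seed group of miR-15 and miR-107, ordered by falling mean level, by group alone (black) and with the replicate block (orange). The interval of miR-103-3p, from -0.25 to 0.27 by group alone, is narrower than that of miR-107-3p, from -0.89 to 0.67; 0 of the 9 were called.

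Among miRNAs reported in pain work to act on ion channels, 13 were tested, miR-103-3p among them. By group alone 0 were called by edgeR, DESeq2 or limma-voom (1 had an unadjusted p under 0.05 by edgeR). With the replicate block 1 rose and 1 fell, beside 28 (6.05%) higher and 26 (5.62%) lower among all tested miRNAs. Leaving out the libraries numbered 2 left 0 higher and 1 lower, and leaving out those numbered 3 left 0 calls. With the block on the totals behind the RPM the list had 0 higher and 5 lower of 13, where 152 (32.8%) of all tested miRNAs were lower. The list's median log2 fold change was 0.0084, the value of miR-103-3p itself. miR-20a-5p, of the miR-17 cluster, averaged 134 ± 24.8 CPM in CCI-ION and 96.1 ± 21.2 CPM in sham. With the block it was called higher (log2 fold change 0.49 ± 0.12, edgeR adjusted p = 0.00134 in this fit and 0.496 by group alone). miR-7a-5p, a neuronal miRNA that represses a sodium channel subunit in rat sensory neurons, averaged 2196 ± 308 CPM in CCI-ION and 3195 ± 779 CPM in sham. With the block it was called lower (log2 fold change -0.52 ± 0.10, edgeR adjusted p = 6.6e-05 in this fit and 0.448 by group alone). miR-32-5p averaged 90.8 ± 14.6 CPM in CCI-ION and 111 ± 29.2 CPM in sham and was not called (edgeR adjusted p = 0.833, and 0.145 with the block). miR-7a-5p differs from miR-7b by 1 base, and miR-20a-5p from miR-17-5p by 2, so both are uncertain.

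Summed markers of other cell types were more spread than miR-103-3p. The 5 leukocyte miRNAs summed to 331, 284 and 304 CPM in CCI-ION libraries 1 to 3 and 266, 222 and 235 CPM in sham libraries 1 to 3, without overlap. The 8 neuronal miRNAs summed to 20147 ± 2543 CPM in CCI-ION and 23564 ± 1826 CPM in sham, and the 6 muscle miRNAs to 6523 ± 2698 CPM in CCI-ION and 9116 ± 3071 CPM in sham, both with overlap. The 4 erythroid miRNAs summed to 558 ± 211 CPM in CCI-ION and 486 ± 253 CPM in sham, the 4 of myelinating glia to 5525 ± 550 CPM in CCI-ION and 6219 ± 480 CPM in sham, and the 2 endothelial miRNAs to 13279 ± 2202 CPM in CCI-ION and 13196 ± 2450 CPM in sham (SD, n = 3 each), all with overlap. Between libraries of the same number, the neuronal, muscle and myelinating glia sums were lower in CCI-ION in 3 of 3 pairs. The leukocyte and erythroid sums were lower in 0 of 3, being higher in each. For the erythroid sum the pair numbered 3 was close, at 407 CPM in CCI-ION and 403 CPM in sham. The endothelial sum was lower in 1 of 3. The share of all tested miRNAs that moved 1 way in 3 of 3 pairs was not counted. In edgeR's fit with the replicate block, 5 of the 8 neuronal and 2 of the 6 muscle miRNAs were called lower and 2 of the 5 leukocyte miRNAs higher, beside 5.62% lower and 6.05% higher among all tested miRNAs. With the libraries numbered 1, 2 or 3 left out these counts were 3, 2 and 0 for the neuronal, 2, 3 and 0 for the muscle and 3, 0 and 0 for the leukocyte list. By group alone 0 markers of these 3 lists were called by edgeR or limma-voom and 2, both neuronal, by DESeq2; by edgeR 2 neuronal, 2 leukocyte and 1 muscle miRNA had an unadjusted p under 0.05. On the totals behind the RPM with the block, 0 of the leukocyte miRNAs were called. All listed markers had counts in some library. Whether the cell makeup of the ganglia bears on the levels of the pair was not tested, and in bulk tissue fewer cells of a type and less RNA per cell cannot be told apart.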

How the data were processed

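The authors deposited raw read counts for 650 mature miRNAs and RPM values per library. The submitters' processing notes name cutadapt 1.14, Bowtie 1.1.1 and the build rn6. The sources used here do not give the counter, the miRNA annotation or how small RNA was selected. The deposited RPM equal the counts times 1 constant per library (100% whole reads within 0.01 read), so dividing by it gives back the deposited counts, and the test below on those reads makes the same 3 calls; scaled to the RPM totals instead, it makes 6.

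Counts were tested with edgeR 4.0.16 (R 4.3.3; quasi-likelihood, robust, TMM, filterByExpr, 463 miRNAs kept and 187 left out) by group alone, with Benjamini-Hochberg adjustment over all tested. DESeq2 1.42.0, limma-voom (limma 3.58.1), other scalings, no filter, a replicate block and left-out libraries were alternatives. Log2 CPM used a prior count of 2. Titles number the libraries 1 to 3 in each group. Deviations of same-numbered libraries correlated at 0.664, 0.591 and 0.457 over the 463 miRNAs, and those of differently numbered libraries at -0.614 to 0.166. The numbers were therefore taken to pair the libraries. Deviations cancel within a group, so these correlations are not independent. The pairing was inferred from the same counts to which the block was fitted. What the number stands for is not given. Replicates of a group all differed by more than sampling noise (chi-square per degree of freedom 165 to 732).

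The members and lists were chosen with earlier results of these data known. Named miRNAs were the members, their 3 nearest profiles, their neighbours in level, the seed group of miR-15 and miR-107, and the called members of the ion channel list with miR-32-5p; the flattest miRNAs, miR-24-2-5p and miR-361-5p, were added after their values were seen.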

Additional observations from a re-analysis of the deposited data

How the results depend on the processing

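miR-103-3p was called under none of the 21 alternatives (edgeR, DESeq2 or limma-voom adjusted p 0.0834 to 0.999). Being near 0, its log2 fold change turned negative with plain totals (-0.0038), no filter (-0.023), the totals behind the RPM (-0.34, also with the replicate block) and the block with number 1 left out (-0.032), and ranged from -0.020 to 0.039 as single libraries were left out. That of miR-107-3p ranged from -0.41 to 0.15 as single libraries were left out. The row summed with miR-103-3p had 0.017, but most of its counts are of miR-103-3p, so this is not a value of miR-107-3p. The log2 fold change of miR-107-3p was positive with the block and number 1 left out (0.14). miR-107-3p passed the threshold only with the block on the totals behind the RPM (-0.49). It was itself the 1 call of that fit in the seed group of miR-15 and miR-107 (0 to 0 without single libraries). The cause was not tested.

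The number of called miRNAs was 6 on the totals behind the RPM, 6 with no filter, 13 with DESeq2 and 1 to 7 without single libraries, against 3. With the replicate block it was 54 (edgeR), 44 (DESeq2), 56 (limma-voom), 158 on the totals behind the RPM, and 45, 31 and 5 with number 1, 2 or 3 left out. The replicate block changed no call of a member under TMM scaling.

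Without single libraries the RPM difference, CCI-ION minus sham, ranged from -548 to -335 for miR-103-3p and from -66.3 to -14.9 for miR-107-3p; in TMM-scaled CPM that of miR-103-3p was 19.1. The share of miR-107-3p differed by -1.93 to 0.844 percentage points. The RMS deviation of miR-103-3p, a measure whose alternatives were chosen after seeing the data, moved to 0.076 (plain totals), 0.14 (upper quartile), 0.21 (totals behind the RPM) and 0.016 (summed pair). It was 0.024 to 0.034 without single libraries, where its rank was 1 or, without sham library 2, 2; that of miR-107-3p was 0.32 to 0.47. Reads too short to reach position 22 limit how far the pair can be separated, and 3 libraries per group leave the interval of miR-107-3p at 0.540 to 1.59 times the sham level.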
